A study of Mus musculus with 20 samples.

Results

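The ear skin of mice injected with IL-4 was set directly against that of mice injected with IL-13, using 10 of the 20 libraries of the series, 5 per cytokine. The libraries were chosen by their column names in the deposited table and not by any measured value. Both groups received 10 µl of recombinant cytokine at 0.1 µg/µl, diluted in PBS and given intradermally into the right ear pinna, and they differ in the labels only by the cytokine. RNA came from whole ear pinnae, so each value is a mean over epidermis, dermis, glands, fat, cartilage, muscle and immune cells. In such bulk samples fewer cells of a type and less RNA per cell cannot be told apart. The labels used here state neither the strain, age or genotype of the mice nor the time from injection to harvest. They also do not say that each sample is a separate animal, and p-values therefore reflect only how these samples spread, which may be technical.

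IL-4 and IL-13 are related type 2 cytokines of allergic inflammation, and both bind receptors that contain Il4ra. IL-4 can pair Il4ra with the common gamma chain Il2rg, which signals through Jak3 and is found mainly on blood-derived cells, or with Il13ra1, which is found on keratinocytes, fibroblasts and other tissue cells. IL-13 uses the Il4ra and Il13ra1 pair and also binds the decoy Il13ra2, and all the signalling pairs lead to phosphorylation of the transcription factor Stat6. The comparison asks which transcripts of the skin tell the cytokines apart and for which the data bound them close together.

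The tissue matched its label in all 10 libraries. The keratin Krt10 of differentiated epidermis lay at 12.97 to 13.91 log2 CPM in IL-4 ears and 13.02 to 14.54 in IL-13 ears, and the cartilage proteoglycan Acan at 6.51 to 7.33 and 6.09 to 7.43. The Y-linked helicase Ddx3y was present throughout, at 6.41 to 6.75 log2 CPM in IL-4 ears and 6.12 to 6.47 in IL-13 ears. Effective depth was 6.10 to 13.95 M reads in IL-4 libraries and 12.89 to 13.76 M in IL-13 libraries, and 3 reads correspond to 0.215 to 0.492 CPM, which limits what can be seen of rarer transcripts. Some libraries stood apart within their own group. IL-4 library 4 and IL-13 libraries 1 and 3 were high in neutrophil genes, with summed levels of 775.2 CPM in that IL-4 library, 1484 and 708.1 CPM in those IL-13 libraries, and 90.74 to 129.6 CPM in the other 7 libraries. IL-4 library 1 and IL-13 library 2 were low in epidermal barrier genes, at 44880 and 45570 CPM, against 65440 to 108100 CPM in the other 8. Values without these libraries are given beside the results that they move most.

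No gene passed the test between the cytokines, and most were bounded to a small difference. Of 15596 genes tested with limma, 0 (0%) had a Benjamini-Hochberg adjusted p under 0.05, and the smallest adjusted p was 0.822. The count was 0 also in 22 of the 23 other fits run, which included all 20 libraries, quantile normalization and library weights. Without IL-4 library 1 the count was 1, the predicted gene Gm10591, named here after its values were seen. It lay at 1.26, -2.68, -2.68, -2.68 and -2.68 log2 CPM in IL-4 ears and 1.02, 2.36, 1.42, 1.85 and 2.01 in IL-13 ears. IL-4 libraries 2 to 5 were at the floor of the table, where no reads are seen, and IL-4 library 1 lay within the IL-13 range. The IL-13 values alone met the filter on low levels. The limma adjusted p without IL-4 library 1 was 0.000373, in a fit whose IL-4 values had no spread, and no size of difference is given for a gene at the floor.

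Below the adjusted threshold, 410 genes (2.63%) were higher in IL-4 ears and 514 (3.3%) lower at an unadjusted p under 0.05. The 5 IL-4 values lay wholly above or below the 5 IL-13 values for 129 genes (0.827%), 58 above and 71 below. Differences are log2 CPM in IL-4 minus log2 CPM in IL-13, so 1 is a 2-fold difference. Over all genes 49.7% of the differences were above 0 and 50.3% below, with a median of -0.0011, and 103 genes differed by more than 1 in either direction.

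**Figure D1:**
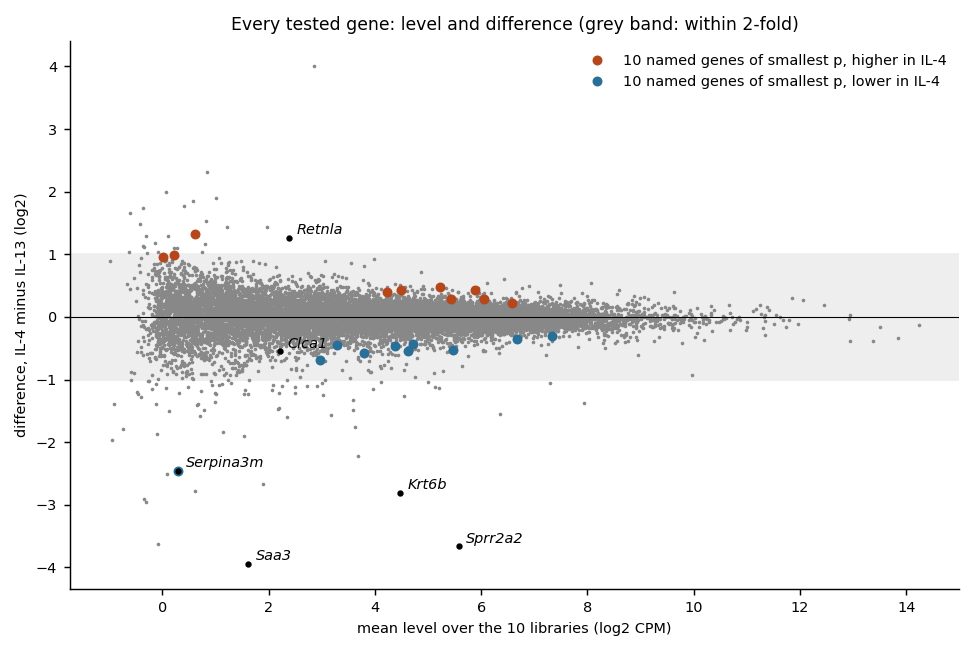
Each point is 1 of 15596 tested genes, with its mean level over the 10 libraries in log2 CPM on the x axis and the log2 difference, IL-4 minus IL-13, on the y axis. Coloured points are the 10 named genes of smallest p in each direction, and the grey band holds differences within 2-fold, outside which 103 genes lie.

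A missed threshold does not show likeness, so the intervals were counted. The 95% interval of the difference lay within 2-fold in both directions for 13840 genes (88.7%) and within 1.5-fold for 10333 (66.3%). The median gene had an interval of 0.297 to either side of its difference, while 544 genes had more than 1 to either side and were not resolved at 2-fold. Libraries of different cytokines were about as close as libraries of the same cytokine. The median absolute log2 difference per gene was 0.164 to 0.344 over the 25 pairs of an IL-4 and an IL-13 library, with a median of 0.223. It was 0.174 to 0.255 over the 10 pairs within IL-4, with a median of 0.202, and 0.153 to 0.343 over the 10 pairs within IL-13, with a median of 0.226.

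The receptor chains, kinases, STATs and feedback genes listed for IL-4 and IL-13, shared or not, were close in both groups. All 18 members tested had intervals within 2-fold (88.7% of all genes did), 8 were higher and 10 lower in IL-4 ears, and their median difference was -0.04. Il4ra, the shared receptor chain, lay at 4.59, 4.34, 4.75, 4.76 and 4.33 log2 CPM in IL-4 ears and 5.29, 4.19, 5.71, 4.57 and 4.53 in IL-13 ears. The groups overlapped, and the highest values were those of IL-13 libraries 1 and 3, which were also high in neutrophil genes. The difference was -0.30 (95% interval -0.84 to 0.23), and without the 3 libraries high in neutrophil genes it was 0.07. Il13ra1, the partner chain on tissue cells, differed by -0.15 (-0.50 to 0.20). Il2rg, the gamma chain that only IL-4 uses, lay at 1.98, 2.60, 2.26, 2.90 and 2.43 log2 CPM in IL-4 ears and 2.85, 1.35, 2.35, 2.64 and 2.22 in IL-13 ears, with full overlap and a difference of 0.15 (-0.44 to 0.74). The decoy Il13ra2 was near the detection limit, at -0.32 to 0.75 log2 CPM in IL-4 ears and -0.10 to 0.77 in IL-13 ears.

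Downstream of the receptors, Stat6 was among the tightest of these genes. It lay at 6.71, 6.83, 6.94, 6.86 and 6.69 log2 CPM in IL-4 ears and 6.89, 6.74, 7.0, 6.76 and 6.83 in IL-13 ears, a difference of -0.03 (-0.19 to 0.12). Jak3, the kinase bound to Il2rg, was at 3.20, 2.60, 3.28, 2.72 and 2.71 log2 CPM in IL-4 ears and 2.62, 2.85, 2.09, 2.63 and 2.65 in IL-13 ears. IL-4 libraries 1 and 3 stood above every IL-13 library and the other IL-4 libraries lay among them, for a difference of 0.33 (-0.08 to 0.75). Jak1, Jak2 and Tyk2, the other Janus kinases of the pathway, differed by -0.11, 0.05 and 0.01. Irs1 and Irs2, adaptors that couple the IL-4 receptor to growth signalling, differed by 0.09 and 0.02. Socs1, a feedback inhibitor of the kinases, differed by -0.05 (-0.58 to 0.47).

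**Figure D2:**
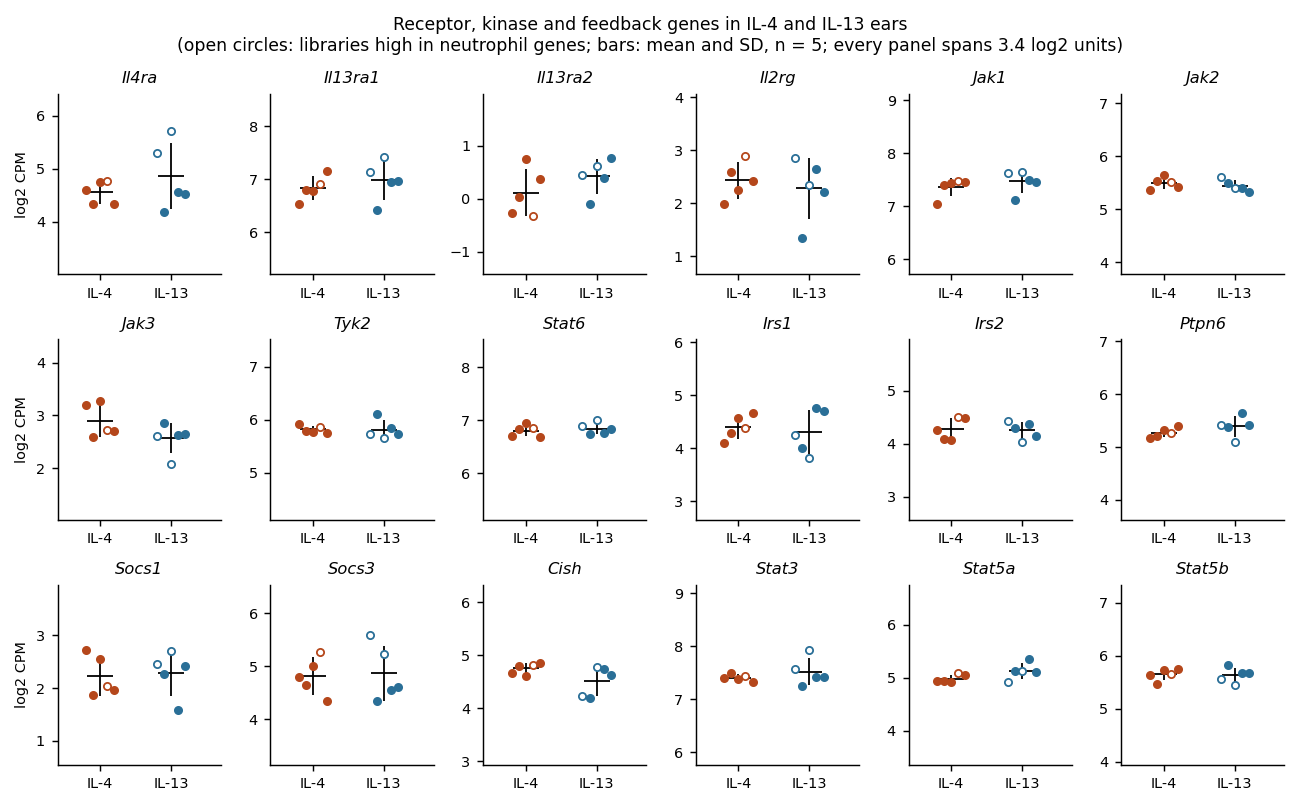
Level of each of the 18 receptor, kinase, STAT and feedback genes in log2 CPM, with IL-4 libraries on the left and IL-13 libraries on the right of each panel. Points are libraries, horizontal lines are means and vertical bars are SD (n = 5), every panel spans the same log2 range, and the groups overlap in all 18 panels.

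Cish, a cytokine-induced inhibitor of STAT signalling, lay at 4.67, 4.80, 4.60, 4.82 and 4.86 log2 CPM in IL-4 ears and 4.23, 4.19, 4.78, 4.73 and 4.63 in IL-13 ears. IL-13 libraries 1 and 2 were below every IL-4 library and the other 3 overlapped with them, and the difference was 0.24 (-0.04 to 0.52). Its promoter is shown because it holds the short spacing of the STAT palindrome. The window runs from 250 bases before to 50 bases after the gene's start, in RefSeq's mouse assembly GRCm38.p6, at chr9:107296409-107296708 on the plus strand, and capitals mark TTCNNNGAA, at positions 1 to 9 and 12 to 20 counted from the start.
Cish promoter: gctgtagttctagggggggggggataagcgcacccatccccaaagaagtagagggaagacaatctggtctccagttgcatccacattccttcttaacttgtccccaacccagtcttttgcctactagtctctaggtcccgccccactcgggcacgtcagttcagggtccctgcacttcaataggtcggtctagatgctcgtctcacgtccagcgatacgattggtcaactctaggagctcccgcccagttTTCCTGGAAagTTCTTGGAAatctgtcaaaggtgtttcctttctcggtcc
On either strand TTCNNNGAA is present in 8.3% of all 32851 promoter windows of this length. A palindrome reads the same on both strands, so 1 site is counted once.

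Targets of Stat6 and genes of alternative macrophage activation were split in direction, and 9 of 24 were not bounded within 2-fold. Of 24 members tested, 10 were higher and 14 lower in IL-4 ears, with a median difference of -0.06 against -0.0011 over all genes, and 15 had intervals within 2-fold, against 88.7% of all genes. The 2 past an unadjusted p of 0.05 were Il22ra2, higher, and Arg1, lower. Over all genes 2.63% were higher and 3.3% lower at that p. Retnla, a secreted protein of alternatively activated macrophages, was at 1.13, 2.08, 4.18, 3.63 and 4.09 log2 CPM in IL-4 ears and 0.98, 1.01, -0.24, 5.24 and 1.79 in IL-13 ears. Its highest value and its lowest value both belonged to IL-13 libraries, and PBS libraries, which did not enter the fit, spanned -2.05 to 1.09. The difference was 1.26 (-0.69 to 3.21). Without the 3 libraries high in neutrophil genes it was 0.19, and with single libraries left out it ranged from 0.76 to 2.13, so the data do not bound Retnla within 2-fold. Its promoter is shown as that of the Stat6 target with the widest range here, at chr16:48842359-48842658 on the plus strand of GRCm38.p6, from RefSeq. Capitals mark the longer spacing of the palindrome, TTCNNNNGAA, which is the form Stat6 prefers, at positions -145 to -136.
Retnla promoter: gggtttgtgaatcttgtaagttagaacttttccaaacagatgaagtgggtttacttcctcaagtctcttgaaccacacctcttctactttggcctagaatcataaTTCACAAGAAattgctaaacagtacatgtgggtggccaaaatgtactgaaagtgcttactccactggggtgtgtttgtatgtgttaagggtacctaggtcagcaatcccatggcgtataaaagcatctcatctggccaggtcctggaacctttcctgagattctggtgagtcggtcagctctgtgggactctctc
TTCNNNNGAA is present in 7.0% of all windows, in 7 of the 33 windows (21.2%) found for 19 of the 31 listed targets, and in 0 of the 20 windows of the receptor and feedback genes. The higher share was not particular to this spacing. In the same 33 windows TTCNNNGAA was present in 15.2%, against 8.3% of all, and the unrelated letters TTTGAA in 33.3%, against 17.9% of all. Some genes have more than 1 window. A match is only a match of letters.

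Il22ra2, the soluble decoy receptor for IL-22, showed the clearest tilt among the Stat6 targets. It lay at 4.03, 4.10, 4.44, 4.27 and 4.36 log2 CPM in IL-4 ears, 3.84, 4.11, 3.82, 3.75 and 3.84 in IL-13 ears and 2.61 to 3.67 in PBS ears. IL-13 library 2 overlapped with the IL-4 values and the other 4 IL-13 libraries lay below all of them. The difference was 0.37 (0.12 to 0.62, limma adjusted p = 0.822), between 0.32 and 0.43 with single libraries left out. Arg1, which encodes arginase, averaged 3.71 ± 0.33 log2 CPM in IL-4 ears and 4.49 ± 0.91 in IL-13 ears (SD, n = 5 each), a difference of -0.79 (-1.56 to -0.01) that was -0.16 without the 3 libraries high in neutrophil genes. Clca1, a secreted protein of IL-13-exposed airway epithelium, was at 1.31, 1.86, 1.97, 2.20 and 2.34 log2 CPM in IL-4 ears, 1.89, 1.83, 2.92, 3.36 and 2.43 in IL-13 ears and 0.55 to 1.49 in PBS ears. IL-13 libraries 3, 4 and 5 held the 3 highest values, the rest overlapped, and the difference was -0.55 (-1.21 to 0.11). Mgl2 and Clec10a, lectins of alternatively activated macrophages and dendritic cells, differed by 0.44 and 0.14, and by 0.00 and 0.03 without those 3 libraries. Chil3 and Plac8, of the same list, went the other way, by -1.24 (-2.985 to 0.51) and -0.89 (-2.21 to 0.44). Without those 3 libraries they differed by -1.75 and -0.385. The matrix protein Postn differed by -0.22 (-0.56 to 0.13).

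Other genes listed from earlier results of these data gave mixed values. Krt24, a keratin of differentiated epidermis, lay at 9.06, 9.14, 9.08, 8.98 and 9.40 log2 CPM in IL-4 ears, 8.79, 8.47, 8.46, 9.05 and 9.39 in IL-13 ears and 5.94 to 8.45 in PBS ears, and the difference was 0.30 (-0.05 to 0.65). Tgm7, a transglutaminase, was at 3.51, 3.03, 3.33, 3.27 and 3.60 log2 CPM in IL-4 ears and 1.74, 3.09, 2.73, 2.76 and 3.16 in IL-13 ears. IL-13 library 1 was far below the rest, and the difference of 0.65 (0.13 to 1.18) was 0.42 without it. Xkrx and Unc93a2 differed by 0.07 (-0.24 to 0.37) and -0.06 (-0.45 to 0.34). Gpr37, a receptor known from glia and neurons, went the other way, at 1.19, 1.36, 1.05, 0.73 and 0.70 log2 CPM in IL-4 ears and 1.71, 1.35, 1.79, 2.41 and 1.99 in IL-13 ears. All but IL-13 library 2 lay above every IL-4 library, and the difference was -0.84 (-1.36 to -0.33), again with a limma adjusted p of 0.822.

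Among the 10 named genes of smallest p that were higher in IL-4 ears, none passed the adjusted threshold, and the groups did not overlap for 9 of them. These 10 were chosen by p, so their separation is a description, and over all genes 0.827% did not overlap, in either direction. Tppp, which promotes tubulin polymerization, was at 5.36, 5.36, 5.64, 5.58 and 5.40 log2 CPM in IL-4 ears and 5.03, 4.94, 4.71, 5.01 and 5.25 in IL-13 ears, a difference of 0.48 (0.25 to 0.71). Mst1r, the receptor tyrosine kinase for macrophage-stimulating protein, was at 6.11 to 6.29 log2 CPM in IL-4 ears and 5.77 to 6.07 in IL-13 ears, a difference of 0.28. Slc16a4, of the monocarboxylate transporter family, and Nostrin, which binds endothelial nitric oxide synthase, differed by 0.96 (0.41 to 1.51) and 1.00 (0.40 to 1.60). Levels were low, at 0.49 ± 0.21 and 0.71 ± 0.23 log2 CPM in IL-4 ears and -0.47 ± 0.23 and -0.29 ± 0.41 in IL-13 ears (SD, n = 5 each). Slc16a4 was at 0.26 to 0.69 log2 CPM in IL-4 ears and -0.74 to -0.10 in IL-13 ears. It passed the filter on low levels only through the IL-4 libraries, so its separation is no support for a difference. Acat3, an acetyl-CoA acetyltransferase, differed by 1.32 (0.62 to 2.02), with IL-13 library 3 far below its group at -1.24. Acat3 has a close copy beside it, Ang shares its locus with another ribonuclease gene and Ugt1a1 shares exons with its family, so these 3 are uncertain. The ribonuclease Ang, the trafficking protein Ergic2, the tRNA-modifying enzyme Pus3, Palmd and Ugt1a1, a glucuronosyltransferase, differed by 0.43, 0.28, 0.40, 0.43 and 0.23.

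Among the 10 of smallest p that were lower in IL-4 ears, the groups did not overlap for 7, with Serpina3m, Mcm5 and Tlnrd1 as the exceptions. Over all genes 0.827% did not overlap, in either direction. The 10 were likewise chosen by p, so their separation is again only a description. Dnlz, a zinc-binding partner of the mitochondrial Hsp70 chaperone, had the smallest p of the named genes. It lay at 4.49, 4.53, 4.60, 4.40 and 4.47 log2 CPM in IL-4 ears and 5.05, 4.86, 4.90, 4.88 and 4.99 in IL-13 ears, with no overlap and a difference of -0.44 (-0.61 to -0.27, limma adjusted p = 0.822). Mcm10, which helps to start and sustain replication forks, was at 2.23, 2.93, 2.70, 2.61 and 2.63 log2 CPM in IL-4 ears and 3.58, 3.08, 3.58, 3.04 and 3.26 in IL-13 ears, also without overlap, a difference of -0.69 (-1.06 to -0.32). Tonsl, a replication fork repair factor, Kifc1, a mitotic kinesin, and Mcm5, a subunit of the replicative helicase, differed by -0.45, -0.55 and -0.53. Xpa, a nucleotide excision repair factor, was at 3.22 to 3.74 log2 CPM in IL-4 ears and 3.87 to 4.16 in IL-13 ears, a difference of -0.57 (-0.86 to -0.28). Tsen34, a subunit of the tRNA splicing endonuclease, the RNA-binding protein Hnrnpa0 and Tlnrd1 differed by -0.35, -0.31 and -0.47. Serpina3m was at 0.60, -2.68, -0.33, -1.18 and -1.05 log2 CPM in IL-4 ears and 2.41, 1.86, 2.16, 1.39 and -0.17 in IL-13 ears. The PBS median was 1.61. IL-4 library 2 was at the floor of the table, and IL-4 library 1 alone of its group met the level of the filter. The difference was -2.46 (-3.78 to -1.14) with wide spread in both groups. Serpina3m also belongs to a cluster of near-identical serpin genes, so its value is uncertain.

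The cell cycle list leaned one way as a whole. All 28 members tested were lower in IL-4 ears, against 50.3% of all genes, and their median difference was -0.45, against -0.0011 over all genes. None passed the adjusted threshold, and 17 of the 28 were lower at an unadjusted p under 0.05, against 3.3% of all genes. The largest differences were those of Plk1 and Aurka, kinases of mitosis, at -0.71 (-1.31 to -0.11) and -0.70 (-1.23 to -0.17). Top2a, the topoisomerase that untangles replicated DNA, was at 5.72, 6.19, 6.05, 5.94 and 6.28 log2 CPM in IL-4 ears and 7.08, 5.95, 6.68, 6.48 and 6.44 in IL-13 ears. IL-13 library 2 lay within the IL-4 range and the other 4 IL-13 libraries lay above it, and the difference was -0.49 (-0.87 to -0.11). Mki67, the proliferation marker, differed by -0.34 (-0.71 to 0.02), and the replication clamp Pcna by -0.14 (-0.31 to 0.03). The helicase subunits Mcm2, Mcm3 and Mcm6 differed by -0.46, -0.41 and -0.32.

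Much of the size of this lean came with IL-13 libraries 1 and 3. The list score, which averages the members' log2 CPM after each gene is centred, was -0.475, -0.242, -0.247, -0.224 and 0.131 in IL-4 ears and 0.738, -0.233, 0.434, 0.021 and 0.096 in IL-13 ears, so the groups overlap and those 2 libraries were highest. They were also high in neutrophil and stress keratin genes, whereas IL-4 library 4, high in neutrophil genes too, had a cell cycle score like its group. Without these 3 libraries the median difference was -0.19, with 25 members lower and 3 higher. In that fit 1 member was lower at an unadjusted p under 0.05, against 174 of all 15596 genes. With single libraries left out the median lay between -0.56 without IL-13 library 2 and -0.32 without IL-13 library 1. The differences of Mcm5, Top2a and Mcm10 were -0.30, -0.23 and -0.50 without the 3 libraries, and -0.48, -0.42 and -0.63 with the neutrophil score as a covariate. Those of Plk1 and Aurka were -0.31 and -0.37 without the 3, and Mki67 differed by -0.10.

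**Figure D3:**
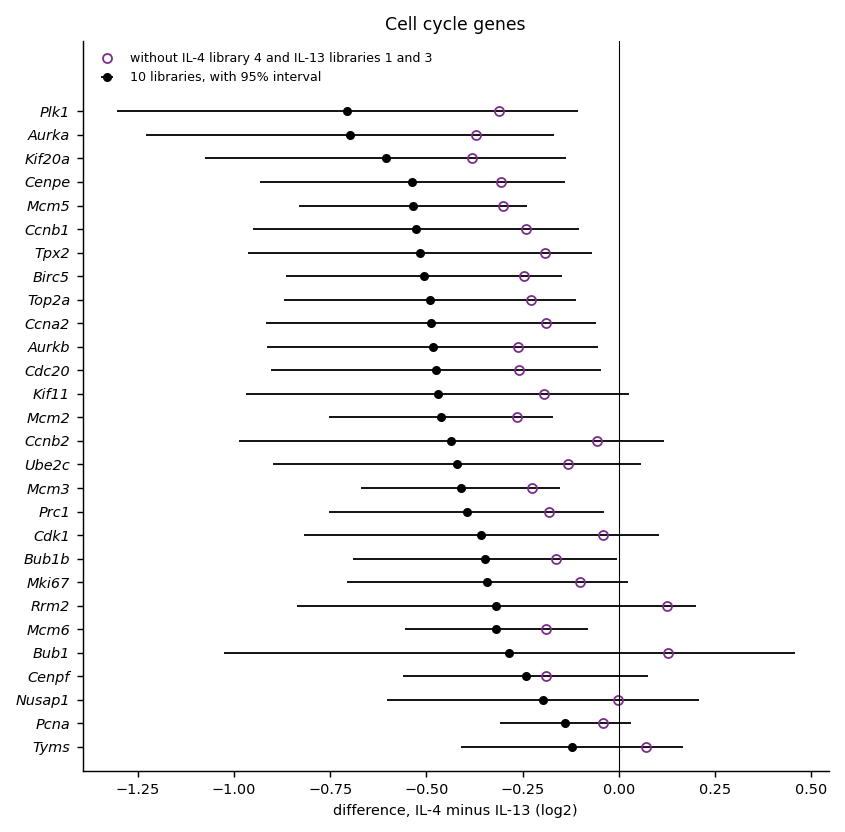
Log2 difference, IL-4 minus IL-13, of the 28 cell cycle genes on the x axis, one gene per line. Filled points with 95% intervals are from 10 libraries, with a median of -0.45, and open circles are without IL-4 library 4 and IL-13 libraries 1 and 3, with a median of -0.19.

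The Top2a promoter is shown as an example from this list, whose 28 members were all lower in IL-4 ears. The window is chr11:99024140-99024439 on the minus strand of GRCm38.p6, from RefSeq, printed along the gene. Capitals mark TTTGAA, the core of the element that holds G2 and M phase genes off in resting cells, and CCAAT, the box bound by NF-Y, on either strand, so that TTCAAA and ATTGG are the same motifs read from the other strand. The motifs do not overlap in this window.
Top2a promoter: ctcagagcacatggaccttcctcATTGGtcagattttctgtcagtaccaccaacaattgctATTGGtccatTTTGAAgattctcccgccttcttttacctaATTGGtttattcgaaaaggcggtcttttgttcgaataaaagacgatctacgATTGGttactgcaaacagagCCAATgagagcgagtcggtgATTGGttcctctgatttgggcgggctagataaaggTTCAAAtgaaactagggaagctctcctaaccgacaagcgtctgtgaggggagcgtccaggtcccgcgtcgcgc
TTTGAA is present in 14 of the 25 windows (56.0%) found for 24 of the 28 cell cycle genes and in 17.9% of all windows, and CCAAT in 22 of 25 (88.0%) and in 37.4% of all windows. In the 19 windows of sebaceous gland genes, the shares were 21.1% and 42.1%.

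Stress keratins, alarm proteins and neutrophil genes gave the largest differences of any list, and these rested on few libraries. The median over 18 stress and wound keratinocyte genes was -1.06, and over 12 neutrophil genes -0.76. Without the 3 libraries high in neutrophil genes the medians were 0.26 and 0.19. The shift of the neutrophil median follows from that choice of libraries. Krt6b, a keratin of wounded epidermis, was at 2.17, 3.27, 1.30, 5.66 and 2.92 log2 CPM in IL-4 ears and 10.43, 2.39, 11.26, 2.83 and 2.45 in IL-13 ears. IL-13 libraries 1 and 3 stood far above all others, and the difference was -2.81 (-6.58 to 0.96) with all libraries and -0.14 without the 3. Krt16, its partner in wound epidermis, behaved alike, at 10.61 and 11.86 log2 CPM in those 2 libraries and at most 7.20 elsewhere. The interleukin Il1b lay at 6.54 log2 CPM in IL-4 library 4 and 7.62 and 5.07 in IL-13 libraries 1 and 3, and at or below 1.63 in the other 7. The neutrophil chemoattractant Cxcl2 and the calgranulin S100a9 were high in the same 3 libraries. Il1b, Cxcl2 and S100a9 belong to the neutrophil list that sets those libraries apart, so their high values there follow from it.

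**Figure D4:**
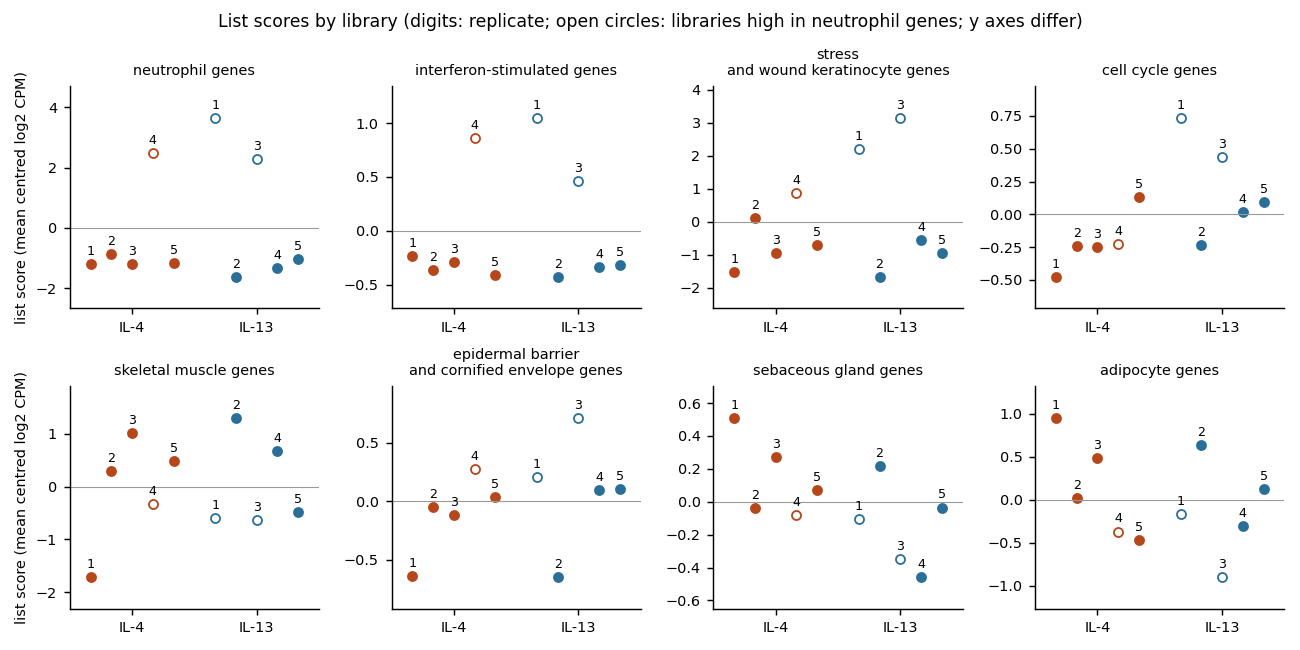
Score of 8 gene lists in each library, as mean centred log2 CPM on the y axis, with IL-4 on the left and IL-13 on the right and digits giving the replicate. IL-4 library 4 and IL-13 libraries 1 and 3, the open circles, are high in neutrophil and interferon-stimulated genes, and the y axes differ between panels.

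Of the neutrophil list, 24 of 28 genes were measured and 12 passed the filter on low levels, so no weight is placed on their count. Interferon-stimulated genes followed the same 3 libraries, with scores of 0.860 in IL-4 library 4, 1.051 and 0.466 in IL-13 libraries 1 and 3 and -0.425 to -0.235 in the others. Their median difference was -0.16 with all libraries and 0.03 without the 3. Saa3, an acute-phase serum amyloid, followed another pattern, at 4.92, -1.99, -2.09, -0.96 and -1.65 log2 CPM in IL-4 ears and 5.31, 5.04, 4.87, 4.44 and -1.72 in IL-13 ears. It was high in 1 of 5 IL-4 libraries and in 4 of 5 IL-13 libraries, and the libraries high in neutrophil genes were on both sides. Only the libraries where it was high met the level of the filter. High values also occurred in PBS ears, where Saa3 spanned -0.35 to 5.16 with a median of 5.05. Its difference was -3.94 (-7.24 to -0.64, limma adjusted p = 0.822), and without the 3 libraries it was -2.79. Sprr2a2, a small proline-rich envelope protein, differed by -3.66 (-6.83 to -0.49), and by -2.53 without the 3, but it is one of several near-identical genes.

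The cornified envelope and barrier genes leaned lower in IL-4 ears by a median that moved with single libraries. Of 60 tested, 12 were higher and 48 lower, 49 had intervals within 2-fold, against 88.7% of all genes, and the median difference was -0.13. With single libraries left out the median ran from -0.30 without IL-13 library 2 to 0.01 without IL-4 library 1, and without the 3 libraries high in neutrophil genes it was -0.02. Lor, the main envelope protein loricrin, was at 12.50, 12.60, 12.65, 12.88 and 13.09 log2 CPM in IL-4 ears and 13.05, 12.68, 13.31, 13.25 and 13.36 in IL-13 ears, with IL-13 libraries 3, 4 and 5 above every IL-4 library. PBS ears spanned 8.67 to 12.96. Its difference was -0.39 (-0.80 to 0.02). Flg2, a filaggrin-like protein, and Sbsn, a secreted suprabasal protein, differed by -0.04 and -0.06. The 12 late cornified envelope genes between Lce1a1 and Lce1m that were tested differed by between -0.09 and 0.08, but they are near-identical and uncertain one by one. All 15 basal keratinocyte genes had intervals within 2-fold, with 8 higher, 7 lower and a median difference of 0.09. Among them Krt5 and Krt14, the basal keratins, differed by -0.17 and -0.38. Krt14 differed by -0.22 without IL-13 library 3 and by -0.07 without the 3 libraries high in neutrophil genes.

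Sebaceous gland genes leaned toward IL-4. Of 19 tested, 17 were higher and 2 lower in IL-4 ears, against 49.7% and 50.3% of all genes, with a median difference of 0.31. Without the 3 libraries high in neutrophil genes 18 were higher and the median was 0.27, and with single libraries left out it lay between 0.18 without IL-4 library 1 and 0.46 without IL-13 library 2. None passed the adjusted threshold. An unadjusted p under 0.05 was found for 5 of 19, against 2.63% of all genes. Without the 3 libraries it was found for 2, where 179 of all 15596 genes were higher at that p. The 5, named after their values were seen, were Scd3, Elovl3, Dgat2l6, Aadacl3 and Acsbg1, at 0.66, 0.51, 0.56, 0.46 and 0.23. Elovl3 lengthens fatty acids of sebum, Acsbg1 activates long-chain fatty acids, and Dgat2l6 belongs to a family that makes neutral lipids. Acsbg1 was at 8.90, 8.85, 9.09, 9.16 and 9.20 log2 CPM in IL-4 ears and 8.69, 8.81, 8.89, 8.89 and 8.75 in IL-13 ears, where the groups overlapped slightly. Scd1, the stearoyl-CoA desaturase of sebaceous glands and fat, was at 12.51, 11.69, 12.16, 11.64 and 11.99 log2 CPM in IL-4 ears and 11.66, 12.28, 11.12, 11.54 and 11.87 in IL-13 ears. Its groups overlapped broadly, and its difference was 0.31 (-0.18 to 0.79). The list scores were highest in IL-4 libraries 1 and 3, at 0.51 and 0.27, and next in IL-13 library 2, at 0.216, and IL-4 library 1 and IL-13 library 2 were the libraries low in barrier genes. The part of tissue makeup in this lean was not tested.

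**Figure D5:**
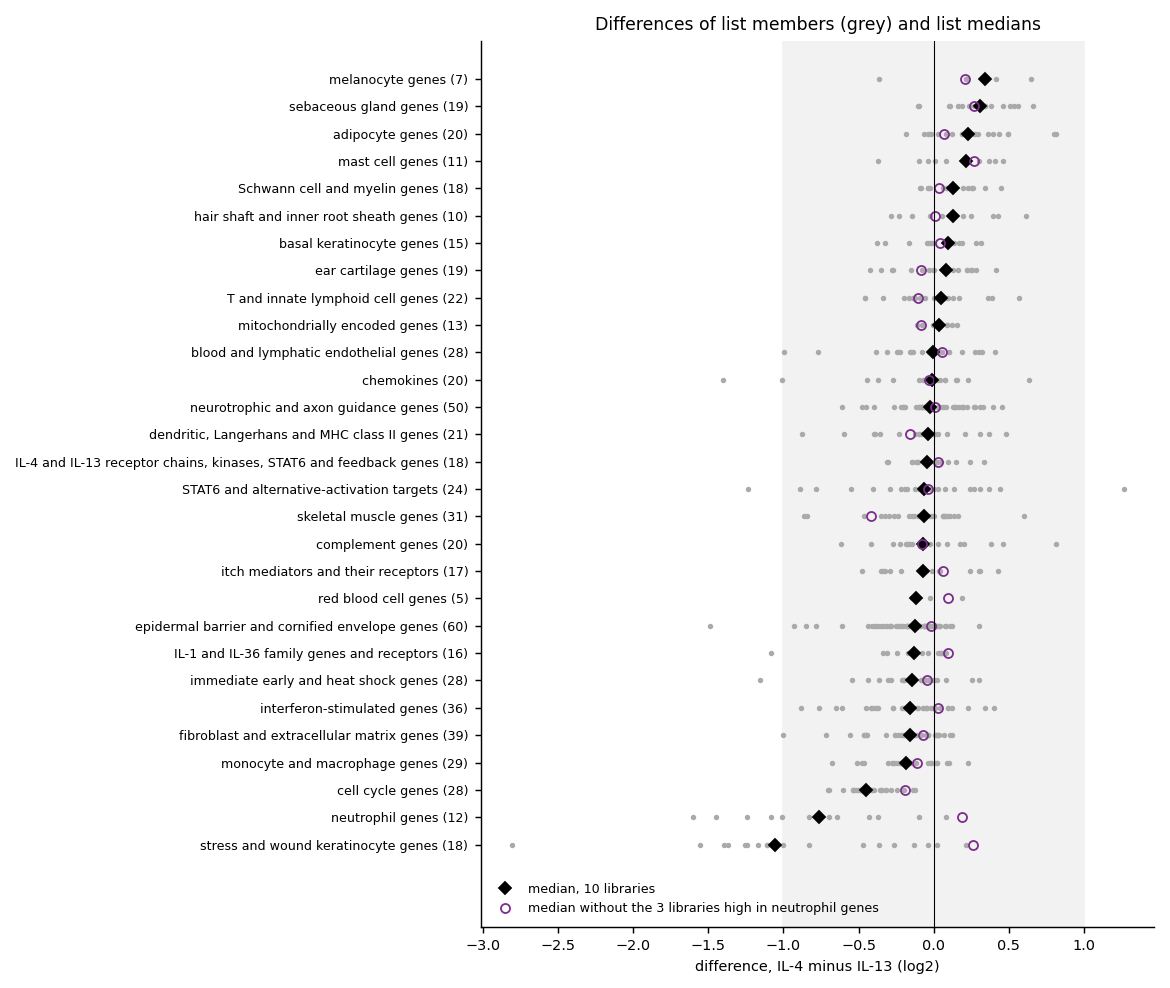
Log2 difference, IL-4 minus IL-13, on the x axis for the tested members of the gene lists (grey points, number tested in brackets; lists with under 5 tested are not drawn), with the list median as a black diamond. Open circles are medians without the 3 libraries high in neutrophil genes, and there the stress keratinocyte median is 0.26, while with all 10 libraries it is -1.06.

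Mast cell and pigment cell genes leaned the same way by smaller counts. Of 11 mast cell genes 8 were higher in IL-4 ears, against 49.7% of all genes, with a median difference of 0.21. The median was 0.27 without the 3 libraries high in neutrophil genes and 0.10 without IL-4 library 3. The tryptase Tpsb2 was at 4.66, 4.02, 4.60, 3.79 and 4.18 log2 CPM in IL-4 ears and 3.69, 3.91, 3.33, 3.94 and 4.07 in IL-13 ears. IL-4 library 4 lay below 3 of the IL-13 libraries, and the difference was 0.46 (0.05 to 0.87). The proteases Cma1 and Mcpt4 differed by 0.37 (-0.01 to 0.74) and 0.30 (-0.04 to 0.64), while Cpa3 differed by 0.08. Among the 3 mast cell genes that were lower, Hpgds and Hdc differed by -0.10 and -0.37, and Hdc is also on the neutrophil list. Of 7 melanocyte genes 6 were higher, against 49.7% of all genes, and the remaining gene differed by -0.37. Their median was 0.34, and it was 0.21 without the 3 libraries and 0.18 without IL-4 library 1. The lineage factor Mitf differed by 0.34 (0.08 to 0.61). The receptor Kit is on both lists. Adipocyte genes had a median of 0.23 and 0.07 without the 3 libraries, and 12 of 20 were not resolved within 2-fold.

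Genes that act on nerves, which the series addresses, had small differences between the cytokines in most cases. Of 50 neurotrophic and axon guidance genes tested, 46 had intervals within 2-fold, against 88.7% of all genes, 22 were higher and 28 lower in IL-4 ears, and the median difference was -0.03. Robo2, a receptor for Slit guidance cues, was at 4.49, 4.65, 4.56, 4.44 and 4.38 log2 CPM in IL-4 ears, 4.13, 4.34, 4.06, 4.27 and 4.36 in IL-13 ears and 3.62 to 3.88 in PBS ears. All IL-4 values lay above all IL-13 values by a narrow gap, and the difference was 0.27 (0.07 to 0.48, limma adjusted p = 0.822). Such separation, in either direction, was found for 1 of the 50 and for 0.827% of all genes. Without the 3 libraries high in neutrophil genes Robo2 differed by 0.20 (-0.05 to 0.45). Nrtn, the GDNF family ligand neurturin, averaged 5.23 ± 0.19 log2 CPM in IL-4 ears and 5.68 ± 0.27 in IL-13 ears (SD, n = 5 each), a difference of -0.45 (-0.73 to -0.17) that was -0.30 without the 3 libraries high in neutrophil genes. The semaphorin receptor Plxnb1 and the netrin receptor Unc5b differed by 0.22 and 0.14, and the ephrin receptor Ephb2 by -0.61 (-1.14 to -0.08). Without the 3 libraries Plxnb1 differed by 0.09 and Ephb2 by -0.35. The neurotrophic factors Bdnf and Gdnf differed by 0.20 (-0.24 to 0.63) and 0.13 (-0.32 to 0.58).

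Itch mediators and their receptors also overlapped between the groups. Of 17 tested, 15 had intervals within 2-fold, against 88.7% of all genes, 6 were higher and 11 lower in IL-4 ears, and the median difference was -0.07. The epithelial alarmins Tslp and Il33 differed by -0.07 (-0.88 to 0.73) and -0.07 (-0.38 to 0.23). The IL-31 receptor chains Il31ra and Osmr differed by 0.43 (-0.29 to 1.15) and 0.04 (-0.27 to 0.36). Of 16 transcripts of sensory axons 4 were tested, and the neuronal tubulin Tubb3 was high in IL-13 library 3, at 4.09 log2 CPM, against 1.47 to 2.67 in the other 9 libraries. Its difference was -0.69 (-1.58 to 0.20), and -0.02 without the 3 libraries high in neutrophil genes.

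Genes of other cell types differed by small medians. Of 29 monocyte and macrophage genes 23 were lower in IL-4 ears, with a median difference of -0.19, and of 39 fibroblast and matrix genes 30 were lower, with a median of -0.16, against 50.3% of all genes. Without the 3 libraries high in neutrophil genes the medians were -0.11 and -0.07. Without IL-13 library 1 alone they were -0.05 and -0.08, and the macrophage median was -0.30 without IL-13 library 2. Csf1r, the receptor that maintains macrophages, differed by -0.04 (-0.30 to 0.23). The collagens Col1a1 and Col3a1 differed by 0.01 (-0.35 to 0.38) and -0.08 (-0.55 to 0.39). Of 12 eosinophil genes 2 were tested and 10 were not found in the deposited table. Of 13 B cell genes 1 was tested and 12 were not found there, so little can be said of either cell type. Skeletal muscle genes were poorly bounded, since 28 of 31 had intervals reaching past 2-fold. Their summed level ran from 793.4 to 5767 CPM in IL-4 ears and from 1735 to 6367 CPM in IL-13 ears, and both ranges overlap widely.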

How the data were processed

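Bulk RNA-seq of mouse ear pinnae was deposited by the authors as 1 table of log2 CPM for 16669 Ensembl genes in 20 libraries, of which the 5 IL-4 and 5 IL-13 libraries were used. The submitters' processing notes name edgeR and the build GRCm38, and no source used here names the aligner or counter. Per the labels' protocols, RNA came from an RNeasy Plus Universal kit and NEBNext Ultra II was the library kit. The table's floor of -2.684 corresponds to 0.1556 CPM added before the log, so differences understate the change of low genes. In the low range 82.3 to 87.7% of values were whole reads within 0.02 reads, too few to recover counts, so no count test was run. The step between them gave the depths. GENCODE release M21 matched 16652 identifiers.

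A gene was tested where 5 or more of the 10 libraries had log2 CPM of 0 or higher, giving 15596 tested and 1073 untested genes. limma 3.58.1 in R 4.3.3 (lmFit, then eBayes with trend, two-sided) was fitted to the 10 libraries as deposited, with Benjamini-Hochberg adjustment over all tested genes at 0.05. Intervals are limma's 95% intervals. Tables and plots used python 3.11.15, numpy 2.4.6, pandas 2.3.3 and matplotlib 3.10.9, and the fit was first tested on simulated data. The text names the 10 genes of smallest p in each direction. The naming rules also picked receptor genes, genes reported earlier, the 4 highest members of each list and the 5 most variable genes per group. Only some of these appear in the text. Other list members in the text were chosen after their values were seen, among them Arg1, Plk1, Aurka, Scd3, Elovl3, Nrtn, Ephb2, Unc5b, Tslp, Il31ra and Csf1r. Genes with predicted names were passed over, 4 among the higher and 2 among the lower. The libraries, lists and genes were chosen with earlier results of these data known. Alternatives covered offset, filter, normalization, variance model, libraries, covariates and a replicate block. Same-numbered IL-4 and IL-13 libraries deviated with correlations of -0.221 to 0.024, so they were not treated as pairs.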

Additional observations from a re-analysis of the deposited data

Results flagged for a closer look

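Single libraries stood far from the other 4 of their group in 35 of 444 groups of values looked at. A rate of about 1 in 20 holds only for unselected, independent values. The groups here include genes chosen for wide spread or small p and genes that vary together, so the count cannot be set against chance. IL-4 library 1 accounted for 9 of these and IL-13 library 2 for another 9. Values are log2 CPM unless a score is named.

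In IL-4 library 1 the epidermal genes Krt10, at 12.97, and Dsp, at 11.14, were below the rest of the group, and so were Jak1 at 7.05, Wnt7b at 6.36, Hspa1b at 8.14 and Sema3d at 6.33. Ifi27l2a at 4.54, Apoe at 11.83 and Saa3 at 4.92 were above it. In IL-13 library 2 the same 2 epidermal genes were low, Krt10 at 13.02 and Dsp at 11.23, with Krt2 at 13.55 and Tap1 at 5.60. There Il22ra2 at 4.11, Lifr at 6.80 and the mitochondrially encoded mt-Co1, mt-Co2 and mt-Cytb, at 13.45, 12.15 and 11.93, were high. These 2 libraries were the ones low in summed barrier genes.

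IL-4 library 4 was above its group in the neutrophil score, at 2.50, and the interferon-stimulated score, at 0.86, and in Cxcl2 at 6.93, Il1b at 6.54, Hdc at 6.29 and Sprr2a2 at 7.34. In IL-13 library 1 Il1r2 was high at 7.20 and Ikzf2 low at 4.95, and in IL-13 library 3 Acat3 at -1.24, Cxcl14 at 4.66 and Sparc at 9.88 were low. In IL-4 library 5 Lifr was low at 6.24, Msx2 high at 5.14 and the chemokine score low at -0.44. Sprr2a1 was listed at -2.68, the lowest value of the table, in IL-4 library 3, Xpa was low at 3.87 in IL-13 library 4, and Saa3 low at -1.72 in IL-13 library 5.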

How the results depend on the processing

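The count of called genes was 0 in every fit run, with the exception of the fit without IL-4 library 1, so leaving out single libraries gave 0 to 1. The smallest adjusted p over the fits was 0.000373 there, 0.0638 without IL-4 library 5, 0.113 with library weights, 0.286 without IL-13 library 2 and 0.488 without the trend, and 0.719 to 1 in the others. The number of genes at an unadjusted p under 0.05 ran from 353 without the 3 libraries high in neutrophil genes to 2094 without IL-13 library 2, against 924 with all libraries. Genes without overlap numbered 129 with all libraries, 186 to 698 with single libraries left out and 610 without those 3 libraries. Fewer libraries make separation easier, which moves this count up by construction. Intervals within 2-fold were found for 13187 to 15049 genes over the fits that test 15596, 14000 of 16669 with no filter and 12057 of 12514 with the stricter filter. With quantile normalization 8208 genes were higher in IL-4 ears, against 7745 as deposited, and the median difference was 0.0102. With the replicate number as a replicate block, 0 genes were called, 690 had an unadjusted p under 0.05 and 13742 were within 2-fold, and no IL-4 library correlated best with the IL-13 library of its own number. The 186 tested genes picked by the naming rules, not all of which appear in the text, gave 4259 comparisons over 23 alternatives. None was called, and 286 changed the sign of an uncalled difference. Depth limits low genes, since 3 reads are 0.215 to 0.492 CPM, and IL-4 library 5 was the shallowest at 6.10 M reads.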

Other observations

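Some tissue lists that the comparison did not touch varied from ear to ear in both groups. The summed level of 5 red blood cell genes was 405, 104, 188.3, 72.61 and 91.22 CPM in IL-4 libraries 1 to 5 and 251.5, 182.1, 88.64, 167.2 and 117.4 CPM in IL-13 libraries 1 to 5. Cartilage genes had a median difference of 0.08 over 19 members, which was -0.08 without the 3 libraries high in neutrophil genes, and the aggrecan gene Acan differed by 0.13 (95% interval -0.34 to 0.60). All 13 mitochondrially encoded genes had intervals within 2-fold, with a median difference of 0.04 and 10 of 13 higher in IL-4 ears. Without the 3 libraries the median was -0.08 and 12 of 13 were lower, and with all libraries IL-13 library 2 was highest in their sum, at 36000 CPM against 21100 to 26620 CPM in the other 9. Schwann cell and myelin genes had a median of 0.13 that was 0.04 without the 3 libraries and 0.02 without IL-4 library 1, with scores highest in IL-4 library 1 and IL-13 library 2, at 0.415 and 0.424, and lowest in IL-13 library 3, at -0.469.

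IL-4 library 1 and IL-13 library 2 were closer to each other than most pairs of one cytokine, with a median absolute log2 difference per gene of 0.169. The first principal component held 30.8% of the variance, and IL-13 libraries 1 and 3 and IL-4 library 4 stood at its one end, at 38.1, 48.4 and 18.2. IL-13 library 2 and IL-4 library 1 stood at the other, at -33.4 and -30.8.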
